A study of Mus musculus with 7 samples.

Results

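The Ifi200 genes form a cluster on mouse chromosome 1 and encode proteins of the PYHIN family, named after the pyrin domain and the DNA-binding HIN domain. The rows of 10 genes were taken from a table of 55401 genes by their GENCODE M21 symbols: Ifi203, Ifi204, Ifi206, Ifi207, Ifi208, Ifi209, Ifi211, Ifi213, Ifi214 and Mndal. All 10 were found and all 10 passed the filter on low counts. These members were chosen because their counts were higher in one group of the study than in the other. The difference between the groups is therefore given for them as a description, with no test.

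The libraries are bulk RNA-seq of microglia, the resident macrophages of the brain, from the dorsal hippocampus of C57BL/6 mice aged 6 to 8 weeks. Cells were enriched with magnetic beads against CD11b, a surface protein that other myeloid cells carry as well. Both groups were given AAV-RAM-Cre, a virus in which a promoter that responds to neuronal activity drives Cre, by injection into the dorsal part of the dentate gyrus. In the ATG7 group (3 libraries) it was combined with AAV-Dio-Atg7-Flag, which expresses a Flag-tagged form of the autophagy enzyme Atg7 where Cre is present. In the EYFP group (4 libraries) it was combined with AAV-Dio-EYFP, which expresses a fluorescent protein. The virus was thus directed at active neurons of the dentate gyrus, and the RNA came from the cells that CD11b beads held. The labels do not say whether a library came from 1 mouse or from a pool, so p-values here measure the spread between these 7 libraries.

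Levels are given as CPM, a gene's count scaled to the size of its library and corrected by TMM factors for differences in composition. The libraries held 35934210 to 55217119 counts. A floor of 3 counts lies between 0.0543 and 0.0835 CPM, and it covers counting error only. RNA of the Atg7 gene itself had an EYFP mean of 35.6 ± 1.68 CPM (SD, n = 4) and an ATG7 mean of 34.9 ± 2.76 CPM (SD, n = 3), with Benjamini-Hochberg adjusted p = 0.939 in edgeR's quasi-likelihood test. EYFP 3 went against the series title, which says that the animals were male. It held 938.5 CPM of Xist, the RNA that coats the inactive X chromosome, against 0.151 to 0.574 CPM in the other 6 libraries. It also held 27.6 CPM of the Y-linked gene Ddx3y, against 121 to 169 CPM in the others. The family's values and the gene counts are therefore also given without EYFP 3. Microglial markers were abundant in every library (summed CPM of 10 genes 22594 to 27641 in EYFP and 22345 to 27506 in ATG7), as were markers of the choroid plexus epithelium, which is not a microglial tissue (54449 to 71787 CPM and 46099 to 60783 CPM).

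PYHIN proteins bind double-stranded DNA through the HIN domain and other proteins through the pyrin domain. The best known, AIM2, senses DNA in the cytosol and assembles an inflammasome with the adaptor ASC (Pycard) and caspase-1. Many of the others are nuclear or shuttle between nucleus and cytosol, and their genes are classical targets of type I interferon, whose receptor activates transcription factors that bind interferon-stimulated response elements (ISRE) in promoters. Microglia carry the interferon receptor and take on an interferon-responsive state in infection, ageing and injury.

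The promoters of most members held the letters of this element just before a RefSeq start of the gene. RefSeq promoter windows (build GRCm38.p6, 250 bases before to 50 bases after a gene's start) were at hand for 9 of the 10 members, in 11 windows; Ifi204 had none. The ISRE core was searched as the letters GAAANNGAAA, on both strands, and lay in the windows of 8 of those 9 members, all but Ifi209. It lay in 3.44% of all 32851 windows. The following stretches are shown because they carry the element, in capitals, beside the sequence around it. They are printed 5′ to 3′ on the strand of the gene and lie outside annotated exons.
Ifi206: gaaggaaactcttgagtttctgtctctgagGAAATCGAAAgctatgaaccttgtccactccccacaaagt
Ifi208: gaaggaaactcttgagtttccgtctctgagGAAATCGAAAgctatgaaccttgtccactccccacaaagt
Ifi213: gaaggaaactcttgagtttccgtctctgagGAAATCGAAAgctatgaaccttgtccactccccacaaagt
Ifi214: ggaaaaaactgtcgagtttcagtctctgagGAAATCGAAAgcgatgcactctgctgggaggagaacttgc
Ifi207: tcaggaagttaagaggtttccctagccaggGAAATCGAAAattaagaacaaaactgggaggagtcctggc
Ifi211: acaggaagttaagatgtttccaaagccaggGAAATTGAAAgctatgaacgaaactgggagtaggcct
Ifi203: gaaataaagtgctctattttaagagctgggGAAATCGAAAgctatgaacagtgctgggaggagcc

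These stretches lie at chr1:173491319-173491388 (minus strand) for Ifi206, chr1:173673577-173673646 (plus) for Ifi208, chr1:173599306-173599375 (minus) for Ifi213, chr1:173535997-173536066 (minus) for Ifi214, chr1:173741811-173741880 (minus) for Ifi207, chr1:173913047-173913113 (minus) for Ifi211 and chr1:173942493-173942557 (minus) for Ifi203. The exact letters GAAATCGAAA occurred in the windows of 7 members, namely the genes printed above other than Ifi211, and Mndal. They occurred in 16 of the 32851 windows, or 0.0487%. Ifi211 carries GAAATTGAAA. Counted from the RefSeq start of its window, the first base of the element lay at -40 in Ifi206, -41 in Ifi207, -37 in Ifi211, -36 in Mndal and -35 in Ifi203. It lay farther out at -58 in Ifi208, -73 in Ifi213 and -79 in Ifi214. The RefSeq starts used for Ifi203 and Mndal lie inside the GENCODE spans, which on the minus strand begin at 173942672 and 173942491. Another Ifi203 window (chr1:173942623-173942922) held no ISRE core. The printed stretches of Ifi208 and Ifi213 were identical over 70 of 70 bases, and Ifi206 matched each at 69 of 70. Ifi207 and Ifi211 matched at 56 of 67 bases, whereas Ifi206 and Ifi207, from different branches of the cluster, matched at 32 of 70. A Mndal stretch matched that of Ifi203 at 65 of 65 bases; it lies in an annotated exon and is not printed. The core of another interferon element, the gamma-activated GAS site (TTCNNNGAA), was in 0 of the 9 members' windows and in 8.30% of all windows. A match is a run of letters, and no binding was measured.

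The cluster spans 474188 bp, from the start of Ifi206 at 173468485 to the end of Ifi203 at 173942672 (chromosome 1, GRCm38). Ifi208 and Ifi209 are on the plus strand and the other 8 members on the minus strand. From Ifi206 the order runs Ifi214, Ifi213, Ifi209, Ifi208, Ifi207, Ifi204, Mndal, Ifi211 and Ifi203. Aim2 lies just before Ifi206, with a gap of 2444 bp, and Ifi202b and Ifi205 lie beyond Ifi203. The annotated span of Mndal reaches over Ifi211 and much of Ifi203, and 155 bp of its exons (4.27%) overlap exons of other genes on the same strand, among them Ifi203.

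**Figure D1:**
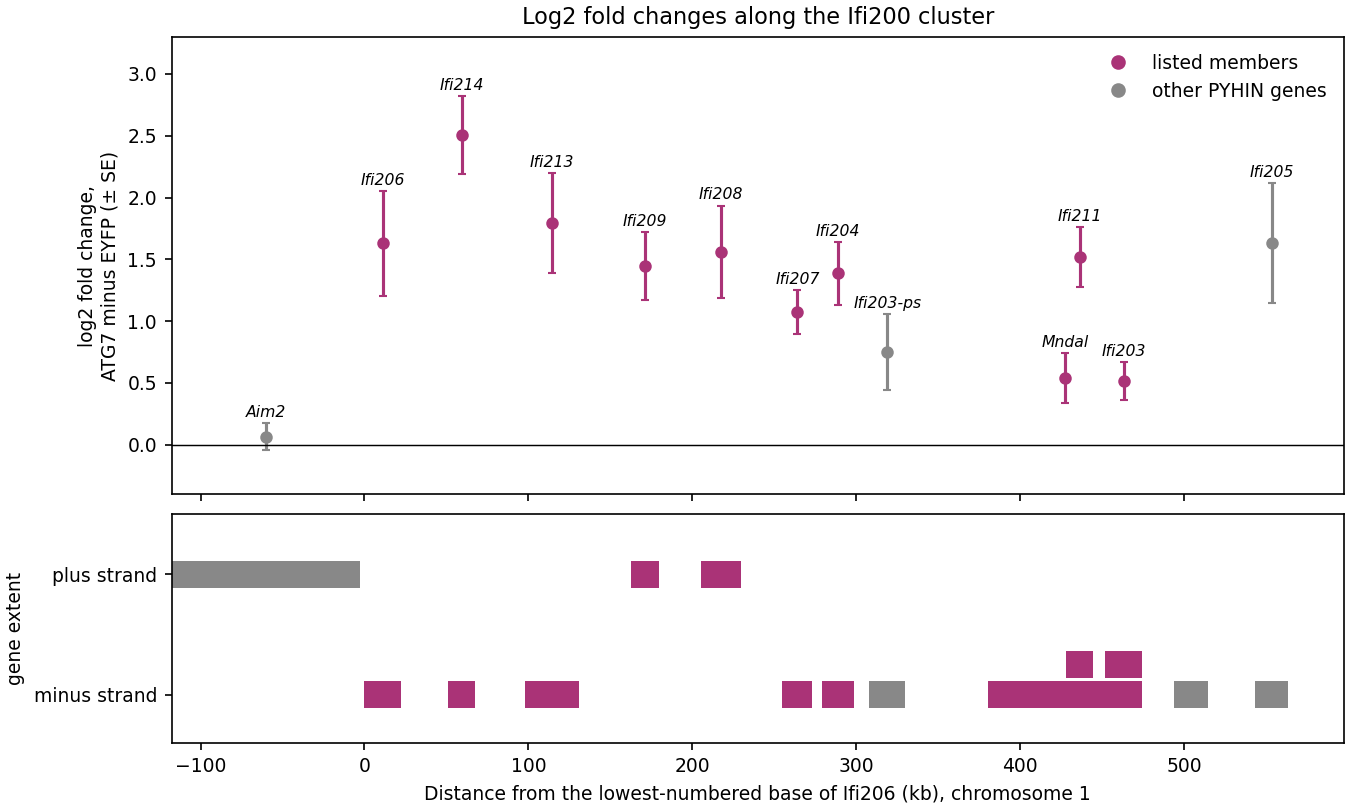
Log2 fold change, ATG7 minus EYFP, of each PYHIN gene (upper panel, points with ± SE bars, members in colour and other genes in grey) against its distance in kb from the lowest-numbered base of Ifi206, with the extent of each gene to scale on its strand (lower panel). Ifi203 and Mndal have the smallest values of the members (0.52 and 0.54), and Ifi214 has the largest (2.51). Ifi211, at the same end of the cluster as Ifi203 and Mndal, has 1.52.

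Summed over the 10 members, the family held 195 CPM in EYFP 1, 154.5 in EYFP 2, 85.9 in EYFP 3 and 143 in EYFP 4, against 288 in ATG7 1, 412.5 in ATG7 2 and 360.3 in ATG7 3. Every ATG7 library lay above every EYFP library. The group means were 145 ± 44.96 CPM (SD, n = 4) and 354 ± 62.4 CPM (SD, n = 3), a ratio of 2.45 or 1.29 on the log2 scale. Without EYFP 3 the log2 ratio was 1.11, and without EYFP 1, the highest EYFP library, it was 1.47. In bulk RNA, more cells with these transcripts and more transcript per cell cannot be told apart.

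All 10 members were higher in every ATG7 library than in every EYFP library, which leaving out a library cannot undo. Over all 19199 genes tested, 6.33% showed that pattern, and since the members were chosen on this contrast nothing is read from the count. With scaling by library size alone, Mndal overlapped (14.3 CPM in EYFP 1 and 14.2 in ATG7 1) and 9 of 10 were separate. The members' median log2 fold change was 1.48, beside -0.0037 over all genes tested. At an adjusted p of 0.05 the edgeR fit called 0.688% of all genes higher and 0.755% in either direction. Calls of single members are not given, since the members were chosen on this contrast.

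Ifi204 encodes p204, the DNA-binding protein often set beside human IFI16 as a sensor that signals through STING. It was the most abundant member, at 48.4, 38.4, 20.8 and 35.8 CPM in EYFP 1 to 4 and at 79.8, 105 and 96.3 CPM in ATG7 1 to 3. The lowest ATG7 library was well above the highest EYFP library, and the log2 fold change was 1.39 (SE 0.254). Ifi207, another HIN-domain member, was at 32.3, 25.1, 18.0 and 24.1 CPM in the EYFP libraries and at 43.5, 60.8 and 52.3 CPM in the ATG7 libraries. Its log2 fold change of 1.07 (SE 0.178) was the lowest of the members past 1, and without EYFP 3 it was 0.94.

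Ifi209, the mouse relative of human IFIX, was at 29.2, 24.2, 12.02 and 21.7 CPM in EYFP and at 49.5, 70.1 and 57.9 CPM in ATG7. Its groups were apart by more than their SDs (21.8 ± 7.22 and 59.2 ± 10.4 CPM), with a log2 fold change of 1.44 (SE 0.275). Ifi211, also known by the older name Mnda, was at 6.97, 7.06, 3.39 and 6.41 CPM in EYFP and at 12.8, 18.1 and 20.1 CPM in ATG7. EYFP 1, 2 and 4 lay close together, EYFP 3 lay far below them, and the log2 fold change was 1.52 (SE 0.243).

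Ifi213 and Ifi208, whose older names Pydc4 and Pydc3 refer to the pyrin domain, share the printed promoter stretch and differed in level. Ifi213 was at 25.2, 15.5, 7.63 and 15.5 CPM in EYFP and at 39.9, 74.7 and 50.5 CPM in ATG7. Ifi208 was at 4.10, 3.90, 1.44 and 3.07 CPM in EYFP and at 5.05, 10.8 and 11.7 CPM in ATG7. ATG7 1 was only just above EYFP 1 for Ifi208, and the other ATG7 libraries were far above. The log2 fold changes were 1.79 (SE 0.403) for Ifi213 and 1.56 (SE 0.375) for Ifi208.

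Ifi206, the member next to Aim2, was at 12.05, 8.09, 2.82 and 7.29 CPM in EYFP and at 17.1, 26.2 and 26.4 CPM in ATG7. It had the deepest drop in EYFP 3, and its log2 fold change of 1.63 (SE 0.424) was 1.35 without that library. Ifi214 was the least abundant, with 19, 20, 12 and 20 counts in EYFP and 64, 131 and 153 counts in ATG7. As CPM, the EYFP mean was 0.428 ± 0.113 (SD, n = 4) and the ATG7 mean was 2.42 ± 0.846 (SD, n = 3). It had the highest log2 fold change of the members, 2.51 (SE 0.317), and the lowest depth behind it.

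Ifi203 and Mndal moved least. Ifi203, a HIN-domain protein reported to act with the DNA sensor DDX41 and STING, was at 21.9, 19.9, 12.7 and 17.7 CPM in EYFP and at 24.6, 27.7 and 25.0 CPM in ATG7. Mndal, named for its likeness to the human myeloid nuclear differentiation antigen, was at 14.1, 11.9, 6.81 and 11.1 CPM in EYFP and at 14.2, 16.8 and 16.8 CPM in ATG7. EYFP 1 and ATG7 1 were nearly level for Mndal. The log2 fold changes were 0.52 (SE 0.154) and 0.54 (SE 0.199), and without EYFP 3 they were 0.37 and 0.36. Without EYFP 3 the other 8 members lay between 0.94 (Ifi207) and 2.32 (Ifi214).

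**Figure D2:**
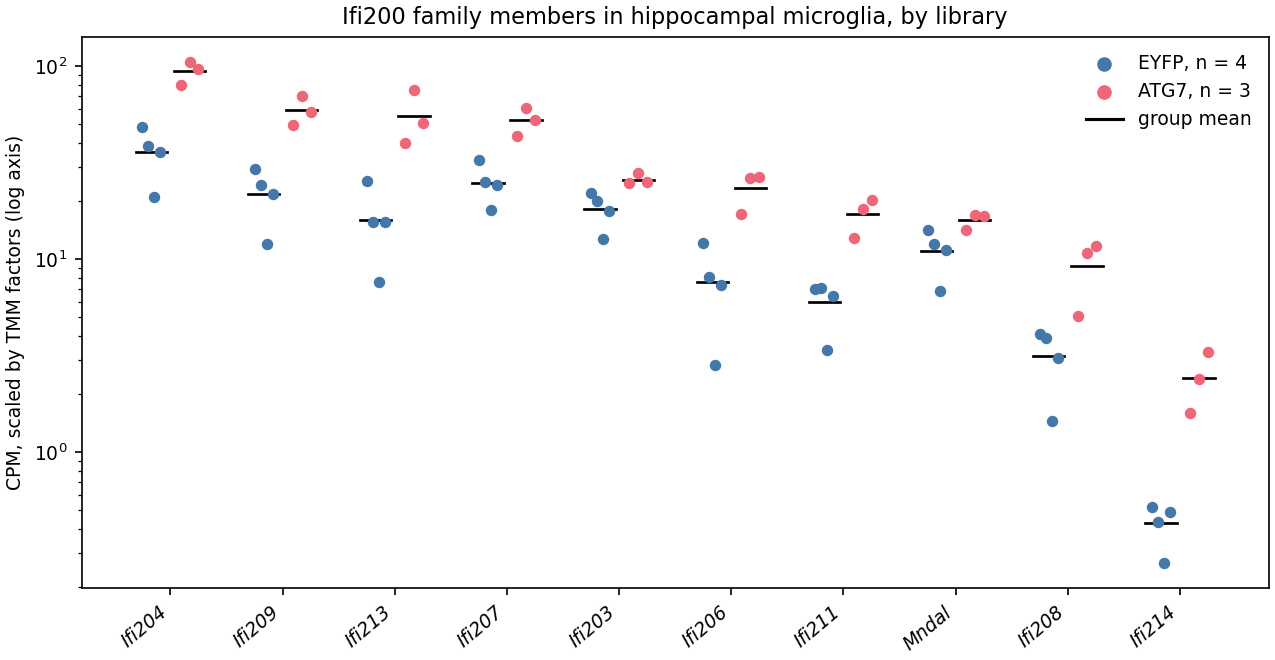
CPM of each member in every library on a log axis, with points for the 4 EYFP and 3 ATG7 libraries and bars for the group means. EYFP 3 is the lowest point of all 7 libraries for each of the 10 members.

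The libraries kept nearly the same order from member to member. EYFP 3 was the lowest of the 7 libraries in 10 of 10 members, and in 11.0% of all genes tested. These are not like shares: members chosen as higher in ATG7 have their lowest value in EYFP, and other genes need not. EYFP 1 was the highest EYFP library in 9 members (28.2% of all genes tested), and EYFP 2 in the other one, Ifi211. ATG7 1 was the lowest ATG7 library in 10 of 10 members, and the highest library of all was ATG7 2 in 6 members and ATG7 3 in 4. The spread within a group was wide: the family sum of EYFP 1 was 2.27 times that of EYFP 3, and that of ATG7 2 was 1.43 times that of ATG7 1. Members share a cluster and sequence and are not independent of each other.

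**Figure D3:**
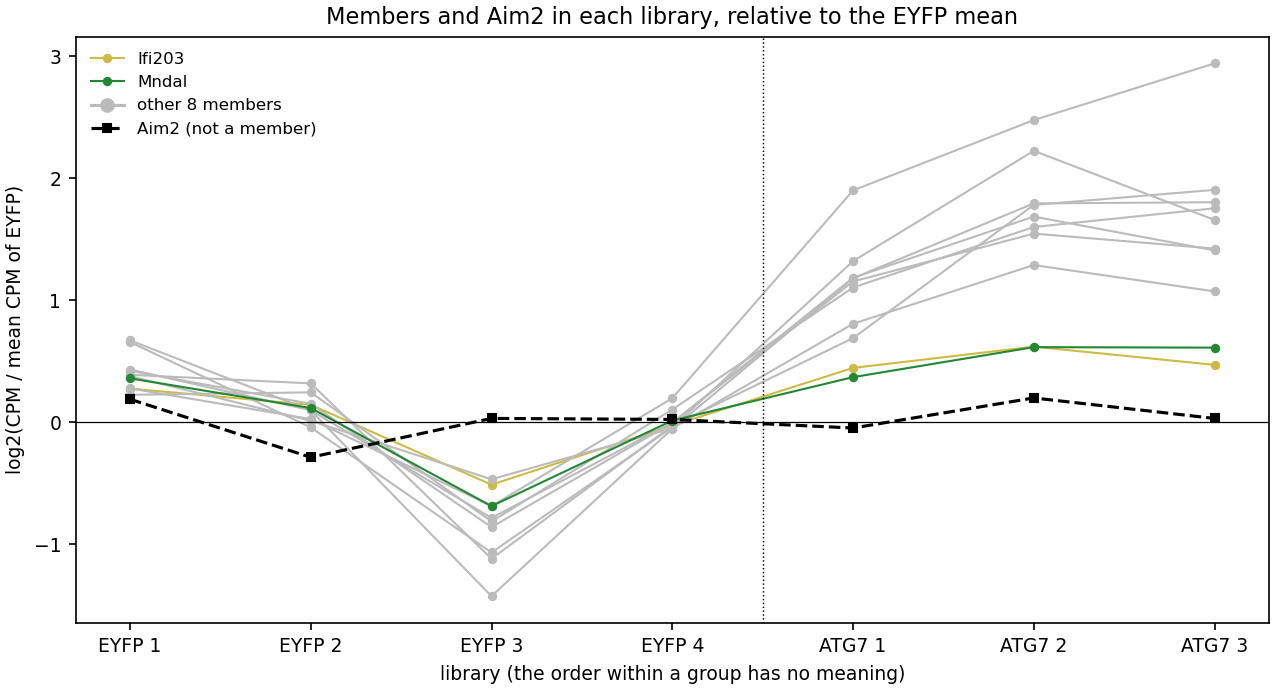
CPM of each member and of Aim2 in the 7 libraries, as the log2 ratio to the gene's own mean in EYFP; the order of libraries within a group has no meaning. All 10 members are lowest in EYFP 3 and above their EYFP mean in every ATG7 library, Ifi203 and Mndal least so, and the dashed line of Aim2 does not follow them.

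Genes differ in length, so levels between members were compared as CPM per kilobase of exon. In EYFP the order was, as mean ± SD with n = 4, Ifi204 (10.1 ± 3.20), Ifi207 (7.27 ± 1.72), Ifi209 (6.14 ± 2.03), Ifi211 (3.34 ± 0.972), Mndal (3.02 ± 0.839), Ifi203 (2.69 ± 0.591), Ifi206 (2.48 ± 1.24), Ifi213 (2.34 ± 1.05), Ifi208 (0.595 ± 0.230) and Ifi214 (0.0528 ± 0.0140). The ranges of neighbours in that order overlapped over the 4 EYFP libraries, except for Ifi213 above Ifi208 and Ifi208 above Ifi214. In ATG7 the order was, as mean ± SD with n = 3, Ifi204 (26.3 ± 3.57), Ifi209 (16.7 ± 2.92), Ifi207 (15.3 ± 2.52), Ifi211 (9.52 ± 2.11), Ifi213 (8.05 ± 2.61), Ifi206 (7.62 ± 1.74), Mndal (4.38 ± 0.415), Ifi203 (3.84 ± 0.255), Ifi208 (1.74 ± 0.686) and Ifi214 (0.299 ± 0.104). Ifi213 stood below Mndal and Ifi203 in the EYFP order, with overlapping ranges between neighbours, and above them in the ATG7 order. Without EYFP 3 the EYFP order was the same except that Ifi206 (2.99 ± 0.834, n = 3) came just before Ifi203 (2.96 ± 0.308), and the ranges of Ifi204 and Ifi207 and of Ifi209 and Ifi211 no longer overlapped.

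The make-up of the family sum shifted accordingly. Ifi203 gave 12.8 ± 1.47% of it in EYFP (SD, n = 4) and 7.40 ± 0.986% in ATG7 (SD, n = 3). Mndal gave 7.64 ± 0.298% and 4.55 ± 0.431%. Both shares, and that of Ifi207 (17.7% and 14.8%), were lower in every ATG7 library than in every EYFP library. The shares of Ifi213 (10.7% and 15.3%), Ifi204 (24.8% and 26.6%), Ifi209 (15.0% and 16.8%) and Ifi214 (0.300% and 0.682%) were higher in every ATG7 library. Those of Ifi206, Ifi208 and Ifi211 overlapped between the groups. Without EYFP 3 the same members lay above, below or overlapping, with EYFP means of 12.2 ± 0.857% for Ifi203 and 7.55 ± 0.282% for Mndal (SD, n = 3).

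The other PYHIN genes of the cluster were not members. Aim2, the inflammasome sensor, was at 101, 72.6, 90.5 and 90.0 CPM in EYFP and at 85.7, 102 and 90.5 CPM in ATG7. Its groups overlapped and its log2 fold change was 0.07 (SE 0.106); its promoter window held neither the ISRE core nor the GAS core. Ifi205 was at 2.21, 1.85, 0.355 and 1.72 CPM in EYFP and at 3.07, 6.55 and 4.54 CPM in ATG7, with EYFP 3 and ATG7 1 the lowest of their groups as in the members, and its window held the ISRE core. Ifi202b had 1 to 6 counts in a library, at or near the floor, and did not pass the filter on low counts. The pseudogene Ifi203-ps had a log2 fold change of 0.75 (SE 0.307).

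The members resemble each other in sequence, and the sources used here do not give how reads that fit several genes were counted. Stretches of 50 bases from all GENCODE M21 transcripts were compared. Between 66.3% (Ifi209) and 92.7% (Ifi207) of a member's stretches occurred in no other gene, except in Ifi211, where 27.2% did. Ifi211 shared 44.7% of its stretches with Ifi205 and 30.1% with Ifi204, Ifi209 shared 33.4% with Ifi214, and Ifi208 shared 18.1% with Ifi213. Aim2 was 99.3% its own. The counts of Ifi211, and to a lesser degree Ifi209 and Ifi206, are therefore uncertain as single-gene values. Those of Ifi214 are uncertain as well, since it shared 14.5% of its stretches with the more abundant Ifi209. In the EYFP libraries Ifi214 held 12 to 20 counts and Ifi209 held 542 to 1110. Summed with its nearest copies, Ifi211 with Ifi205 and Ifi204 had a log2 ratio of 1.41 between an EYFP mean of 43.4 ± 13.8 CPM (SD, n = 4) and an ATG7 mean of 115 ± 17.5 CPM (SD, n = 3). Ifi209 with Ifi214, of which Ifi209 is by far the more abundant, gave 1.47 and Mndal with Ifi211 gave 0.96. In each of these sums every ATG7 library lay above every EYFP library.

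**Figure D4:**
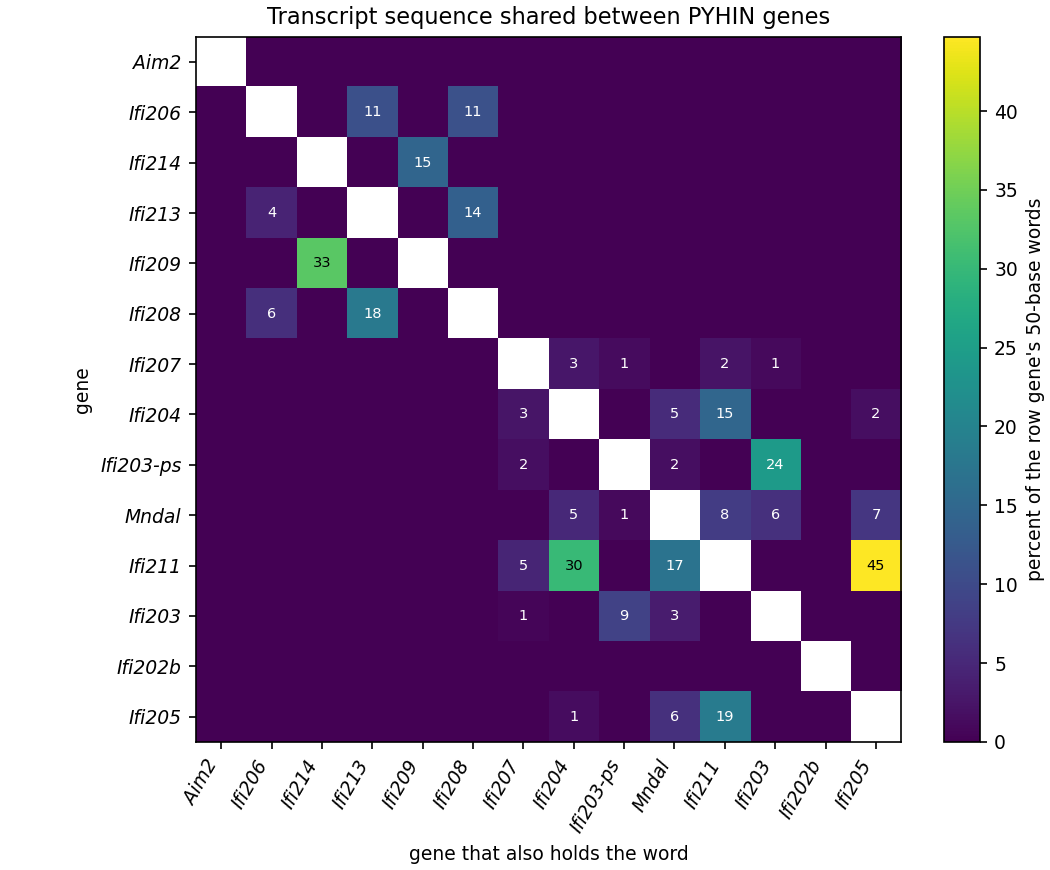
Share (%) of the 50-base stretches of the gene in each row that also occur in the gene in each column, as a coloured grid of PYHIN genes. Ifi206, Ifi208 and Ifi213 share stretches with each other, and Ifi209 shares them with Ifi214. Ifi203, Ifi203-ps, Ifi204, Ifi205, Ifi207, Ifi211 and Mndal are linked in a further block, in which not every pair shares stretches. Ifi203 shares most with Ifi203-ps.

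Interferon genes outside the family were tested in edgeR (quasi-likelihood test, p-values adjusted over all 19199 genes by Benjamini-Hochberg). Of 30 interferon-stimulated genes 18 rose and 0 fell, with a median log2 fold change of 1.13, and 29 of the 30 were higher in every ATG7 library. Over all genes tested 0.688% were called higher and 6.33% were higher in every ATG7 library. Gbp2, a guanylate-binding protein, rose by 1.14 (adjusted p = 0.00705), Bst2 (tetherin) by 0.86 (adjusted p = 0.0105) and Isg15, a ubiquitin-like modifier, by 1.52 (adjusted p = 0.0182). Ifit3 had a log2 fold change of 1.34 and did not pass (adjusted p = 0.131). Of 16 genes of interferon receptors and signalling 4 rose and 0 fell. Among them were the transcription factor Stat2 (0.93, adjusted p = 0.0137), the feedback inhibitor Usp18 (1.49, adjusted p = 0.0420) and Irf1 (0.53, adjusted p = 0.0483). Irf9, a DNA-binding partner of Stat2, was at 0.38 (adjusted p = 0.0590), and Irf7 was at 1.56 (adjusted p = 0.152). Both lists were drawn up with earlier results of these data known. Without EYFP 3 the number called in both lists rose from 22 to 32, and without EYFP 4 or ATG7 3 it fell to 2, without ATG7 2 to 3 and without EYFP 2 to 7.

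The cytosolic DNA-sensing and inflammasome genes, the pathway in which PYHIN proteins are known to act, showed 1 gene higher and 0 lower of 19 tested, with a median log2 fold change of 0.13. The gene was Samhd1, a nucleotide hydrolase (0.52, adjusted p = 0.0272 in edgeR). Over all genes tested 0.688% were called higher. At an unadjusted p below 0.05 in edgeR there were 7 of the 19, beside 2300 of all 19199 genes. Fitted values were higher for 17 of the 19, beside 9439 of all 19199 genes. Of the 19, 7 were higher in every ATG7 library, against 6.33% of all genes. The genes of cGAS (0.12, adjusted p = 0.797) and STING (0.19, adjusted p = 0.521), Pycard (0.13, adjusted p = 0.604) and Casp1 (0.26, adjusted p = 0.245) did not pass in edgeR. Zbp1, with a log2 fold change of 1.80, did not pass either (edgeR adjusted p = 0.107). The Samhd1 call was lost without any one of ATG7 1, ATG7 2, ATG7 3, EYFP 2, EYFP 3 or EYFP 4.

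Genes next to the cluster, within 1 Mb of its ends and not of the PYHIN family, showed 1 of 12 tested genes higher and 0 lower (63 annotated). Over all genes tested 0.688% were called higher. The 1 neighbour called was Slamf8, a receptor of the SLAM family found on macrophages, which lies 877917 bp before the cluster and rose. Its EYFP mean was 12.5 ± 1.90 CPM (SD, n = 4) and its ATG7 mean 22.3 ± 1.71 CPM (SD, n = 3). The fitted difference was 0.84 on the log2 scale, with edgeR adjusted p = 0.0142. The call was lost without ATG7 2 (adjusted p = 0.0757 in edgeR), ATG7 3 (0.0990) or EYFP 4 (0.0509). The nearest tested genes on either side, Cadm3 (100790 bp before) and Fmn2 (559153 bp after), had log2 fold changes of -0.17 (edgeR adjusted p = 0.944) and -0.18 (edgeR adjusted p = 0.642). Cadm3, a neuronal adhesion molecule, was at 2.95 CPM in EYFP 1 and its value without that library was 0.67.

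The promoter element was compared with RNA in other genes. Outside the members, 1071 genes had a window with the ISRE core and 488 of them were tested. Of these 26 were called higher and 1 lower, 5.33% higher against 0.688% of all genes. Of the 488, 80 (16.4%) were higher in every ATG7 library, against 6.33% of all genes. The median log2 fold change of the 488 was 0.05. Without EYFP 3, 34 of 483 were called higher (7.04%, against 0.749% of all genes) and 89 (18.4%) were higher in every ATG7 library, against 8.55% of all genes. The exact letters of the 7 members occurred in 9 other genes, of which 7 were tested. Ddx58, which encodes the RNA sensor RIG-I, was the one called higher among them (0.64, edgeR adjusted p = 0.0206). Of the 22 interferon-stimulated genes on the list that had windows, 16 held the ISRE core, against 2 of 14 signalling genes and 1 of 16 DNA-sensing genes.

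To place the family's pattern among other genes, log2 CPM over the 7 libraries was compared with the mean of the members in 15032 genes of mean CPM of at least 1. These values share the libraries and the groups, and no p is given. The genes most alike were Ifit2 (r = 0.998), Oasl1 (0.997), Zbp1 (0.997), Rsad2 (0.996) and Irf7 (0.996). After group means were taken out, so that only differences between libraries of a group remained, they were Oas3 (0.997), Rsad2 (0.995), Ifit2 (0.995), Oasl1 (0.992) and Phf11a (0.990). Each member compared in that way with the mean of the other 9 gave values from 0.826 (Ifi214) to 0.989 (Ifi206). For Aim2 the 2 measures were 0.296 and 0.191, and for Ifi205 they were 0.960 and 0.970. The likeness within groups leaned on EYFP 3. Over the other 6 libraries, the 5 most alike by the second measure were Hmgb2 (0.999), Gm11772 (0.998), Oas3 (0.998), Dhx8 (0.997) and Ifit3 (0.995). Rsad2 was at 0.982 (rank 39), Ifit2 at 0.981 (rank 41), Oasl1 at 0.978 (rank 54) and Phf11a at 0.963 (rank 137). The members' own values then ran from 0.675 (Ifi214) to 0.962 (Ifi206), Aim2 was at 0.595 and Ifi205 at 0.898. By the first measure Oas3 (0.999), Oasl1 (0.998), Ifit2 (0.997), Usp18 (0.997) and Isg15 (0.997) came first.

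Cell type markers were read beside these results. The summed level of 9 lymphocyte markers was 1.60 to 4.84 CPM in EYFP and 6.02 to 16.6 CPM in ATG7, with no overlap. Cd3e, Cd3g, Cd3d, Cd8a, Trac and Nkg7, the 6 of 9 that mark T and NK cells, were each higher in every ATG7 library, as were 6.33% of all genes tested. Some of these values were low or close. Cd3d was at 0.0443 CPM in EYFP 3, below that library's floor of 0.0665 CPM. Cd3g was at 0.785 CPM in EYFP 4 and 0.824 CPM in ATG7 1. None of the 9 was at 0 in all libraries, and the part of lymphocytes in the family's values was not tested. Markers of monocytes and neutrophils were at 56.1 to 86.3 CPM and 44.5 to 145 CPM, with 1 of 8 (Plac8) not overlapping. Border macrophages (532 to 647 and 569 to 644 CPM) and the microglial markers overlapped in sum and in every gene. The lymphocyte sum, like the family sum, was lowest of all in EYFP 3 (1.60 CPM) and lowest within ATG7 in ATG7 1 (6.02 CPM). It was highest in ATG7 3 (16.6 CPM), where the family sum was highest in ATG7 2, and within EYFP it was highest in EYFP 2 (4.84 CPM), where the family sum was highest in EYFP 1.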

How the data were processed

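The authors deposited 1 table of raw counts per gene and library (7 libraries, 55401 Ensembl identifiers, 0 unmatched columns). Per the submitters' processing notes, the tools named are fastp 0.20.1, HISAT2 2.0.5 and featureCounts, with the builds mm10 and GRCm38. Counting options, strand, the treatment of shared reads and the annotation release are not given in the sources used here. The 37 mitochondrial genes were at 0 in every library. Columns were matched to libraries by name, and groups were taken from the sample titles.

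Symbols and exons came from GENCODE M21 (55141 identifiers had a symbol) and promoter windows from RefSeq (GRCm38.p6). Counts were analysed in R 4.3.3 with edgeR 4.0.16 (filterByExpr, TMM factors, robust quasi-likelihood test, two-sided, Benjamini-Hochberg over 19199 genes, threshold 0.05). CPM used TMM-scaled library sizes, and log2 CPM a prior count of 2. Fold changes were those of the edgeR fit. DESeq2 1.42.0, limma 3.58.1 (voom), other scalings and filters, a replicate block and leaving out each library were alternatives; the shares, levels per kilobase, likeness and ISRE counts without EYFP 3 were added after seeing the data. The fit was tested on simulated data. The members and gene lists were chosen with earlier results of these data known. The genes named were all members, the other PYHIN genes, up to 6 called genes of each list with preset pathway genes, every called neighbour and the nearest tested one on each side, and the 5 most alike genes. A gene of the interferon signalling list is not reported here. Shared sequence was searched among transcripts, since no genome sequence was used here.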

Additional observations from a re-analysis of the deposited data

Results flagged for a closer look

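Library EYFP 1 lay far from the other EYFP libraries in 2 of the 44 values examined in this way, and chance alone sets about 1 in 20 such groups apart. The summed level of the 7 neuronal markers was 51.3 CPM in EYFP 1, against 26.0, 25.2 and 26.7 CPM in EYFP 2, 3 and 4. The neighbouring gene Cadm3, a neuronal adhesion molecule, was at 2.95 CPM in EYFP 1, against 0.916, 0.576 and 0.589 CPM in the others. EYFP 1 was also the highest EYFP library in 9 of the 10 members (28.2% of all genes tested), and the family's log2 ratio without it was 1.47. The part of neuronal RNA in the members' values was not tested.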

How the results depend on the processing

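The family's log2 ratio of 1.29 ranged from 1.11 to 1.47 with each library left out and kept its direction under both other scalings. Signs changed in Aim2 and Cadm3. Aim2 (0.07) was at -0.01 without ATG7 2 and -0.02 without EYFP 2. Cadm3 did not pass the test in any setting: its value of -0.17 became 0.16 with voom and ranged from -0.43 to 0.67 with each library left out. Of 160 member values 158 moved by less than the pooled SD of that member's log2 CPM within groups (0.27 in Ifi203 to 0.72 in Ifi206). The exceptions were sums with a copy, chosen after seeing the data. They took Ifi214 from 2.51 to 1.47 and Mndal from 0.54 to 0.96. Leaving out a single library can hardly move a group mean by that SD, so the 158 do not measure stability. The fit on replicate numbers 1 to 3 without a block is also the fit without EYFP 4, and both were counted. Counts of called genes moved more. Over all genes the 145 calls became 572 with DESeq2 (404 higher, 168 lower) and 297 with no filter (234 and 63), and ranged from 28 to 277 with each library left out. The 22 interferon calls became 34 with DESeq2 and ranged from 2 to 32 with each library left out. The DNA-sensing count of 1 became 4 with DESeq2, 2 with voom and 2 with no filter, and ranged from 0 to 3. The neighbour count of 1 ranged from 0 to 1. The 3 members past the threshold became 8 with DESeq2, 7 with voom and 1 with no filter, and ranged from 1 to 6. Over all genes 0.755% passed in the main fit. The members were chosen on this contrast, so these counts are no test of the family and nothing is read from them. Among the named genes outside the family 68 of the alternatives lost a call, 9 gained one and 236 changed nothing. The cause was not tested.

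Replicate numbers did not pair the libraries: the correlations of same-numbered deviations were -0.0591, -0.173 and 0.0428. With the replicate block, on numbers 1 to 3, edgeR called 0 genes over all genes (1234 at an unadjusted p below 0.05), 0 interferon genes (37 unadjusted), 0 DNA-sensing genes (5 unadjusted) and 0 neighbours (1 unadjusted). The same libraries without the block, chosen after seeing the data, gave 30, 2, 0 and 0. With 4 and 3 libraries, values of low genes such as Ifi214 rest on few counts.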
